A study of Mus musculus with 8 samples.

Results

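Hvcn1 encodes the voltage-gated proton channel Hv1, and the results here describe the cryptic transcription starts deposited inside this gene in a study of mouse liver ageing. The gene was chosen by the deposited peak lists themselves: a peak belongs to Hvcn1 where its centre lies in the GENCODE M21 body of the gene, on either strand. Of the 1627 peaks in the 4 deposited lists, 10 met this rule. They comprised 8 of the 976 peaks in the larger list of old liver and 2 of the 216 in the stricter list of old liver. Neither list of young liver held one, with 0 of 425 peaks in the larger and 0 of 10 in the stricter. Position in the gene and membership of an old list therefore follow from how the gene was picked and are given as a description.

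Hv1 lets protons leave a cell when the membrane depolarises and the cytoplasm is more acid than the outside. It is best known in phagocytes, where proton efflux balances the electrons that the NADPH oxidase carries across the membrane, and in B cells, where it associates with the B-cell receptor. In liver such cells are the resident macrophages and the infiltrating or circulating leukocytes. The protein has a cytoplasmic amino-terminal tail, a membrane domain that senses voltage and conducts protons, and a carboxy-terminal coiled coil that joins it into dimers. In human B cells a shorter form is also known that begins at an internal methionine of the tail.

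The study used PRO-cap on frozen liver of C57/BL6J mice, a run-on assay of nascent RNA that sequences capped 5′ ends and so maps where RNA polymerase starts. There were 4 samples of old mice, aged 22 to 25 months, and 4 of young mice, aged 2 to 4 months, each with 2 females and 2 males, all on a standard diet fed freely. The young mice were bought from Jackson Laboratories and the old ones came from the rodent colony of the National Institute on Aging, so age and supplier cannot be told apart. A cryptic start here is a peak of 150 bp inside a gene and away from annotated starts, as the authors listed it. The larger lists give 1 fold per peak, of at least 10 for one age over the other. Each list is a single pooled result, so no spread between animals exists and no test of age was made. The labels tie the larger lists to all samples of an age, while the list names carry a mark used elsewhere for the females, so the sexes behind the pool are uncertain. The strand column of the lists holds the same sign throughout and was not used. In bulk liver, more cells of a type and more RNA per cell cannot be told apart. The lists give no expression level, and the cell type that made the Hvcn1 RNA was not tested.

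In mm10 the gene Hvcn1 (ENSMUSG00000064267.13) lies on the plus strand of chromosome 5, from 122206804 to 122242297, a length of 35494 bp. GENCODE M21 gives it 5 transcripts, all annotated as protein-coding, whose first bases lie between 122206804 and 122210134. The full-length transcript Hvcn1-201 has 8 exons and 269 codons before the stop. Its exon 3 holds only the first 7 codons, and an intron of 17056 bp separates it from exon 4. Exon 4 holds codons 8 to 98, and an intron of 3988 bp leads on to exon 5.

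All 8 peaks of the larger old list stood around exon 4, in a stretch of 3288 bp that is 9.26% of the gene. The first 3 lay in the intron before exon 4 and the other 5 in the intron after it. Of the 8, 0 touched an exon of the full-length transcript. The share of exonic peaks over the whole list is not given here, so this count is not read as a trait of Hvcn1. In gene order the peaks, numbered 1 to 8 from here on, began at 122232056, 122232203, 122232990, 122233730, 122233882, 122234557, 122234682 and 122235194, each reaching 149 bases further. Exon 4 itself occupies 122233420 to 122233692. Peak 3 ended 280 bp before the exon, and peak 4 began 37 bp after it. On a scale from 0 at the start of the gene to 1 at its end, the centres ran from 0.714 to 0.802, and the last peak stopped 6954 bp short of the gene's end.

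**Figure D1:**
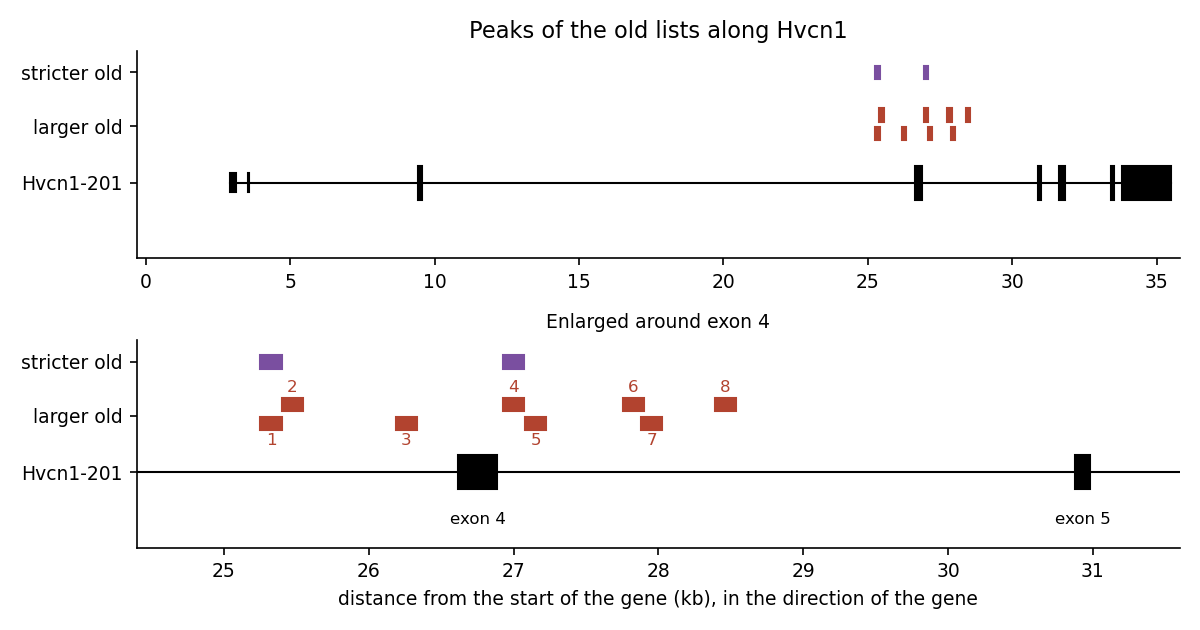
Map of Hvcn1 with the transcript Hvcn1-201 (taller boxes are exons that hold coding sequence, shorter ones are non-coding exons) and the peaks of the old lists, against distance from the gene's start in kb; the lower panel enlarges the part around exon 4, with the 8 larger-list peaks numbered. The peaks flank exon 4 and none lies on it.

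The sequence of exon 4 is shown because the peaks stand on both sides of it. It was read from the GENCODE M21 transcript file (chr5:122233420-122233692, plus strand, mm10), in lower case, and its capitals mark the only in-frame ATG of the exon.

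Hvcn1 exon 4: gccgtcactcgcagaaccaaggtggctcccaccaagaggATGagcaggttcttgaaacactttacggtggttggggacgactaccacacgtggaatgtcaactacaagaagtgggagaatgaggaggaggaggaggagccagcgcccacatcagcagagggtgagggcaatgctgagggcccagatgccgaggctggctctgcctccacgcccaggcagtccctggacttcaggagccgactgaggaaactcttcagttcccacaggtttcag

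That ATG is codon 21 of the full-length protein and starts at base 40 of the exon. The coding sequence has 4 in-frame ATG codons in all, at codons 1, 21, 138 and 147. Read along the gene, 97.4% of the coding sequence lies beyond peaks 1 to 3, and the first in-frame ATG beyond them is codon 21. Beyond peaks 4 to 8 lies 63.6% of the coding sequence, and the first in-frame ATG there is codon 138. These are positions in the annotation. The lists do not say which strand a peak was transcribed from, and the bases of the intronic peaks were not read here.

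The reads behind each fold could be recovered, since each deposited fold equals a whole number of scaled reads plus a constant on one side over the same on the other. The sources used here do not state the window and strand in which these reads were counted. At peak 1 the old side had 297 reads and the young side 9. Peak 2 had 84 and 0, and peak 3 had 205 and 3. These first peaks, before exon 4, carried the fewest young-side reads of the set. Peak 4, the first beyond exon 4, had 448 and 14, and peak 5 had 320 and 17. The highest counts of both ages came next, with 776 and 41 at peak 6 and 582 and 26 at peak 7. Peak 8, the last, fell back to 242 and 14. The lowest old-side count, 84, exceeded the highest young-side count, 41, and a separation of this kind follows from the fold that the lists require.

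**Figure D2:**
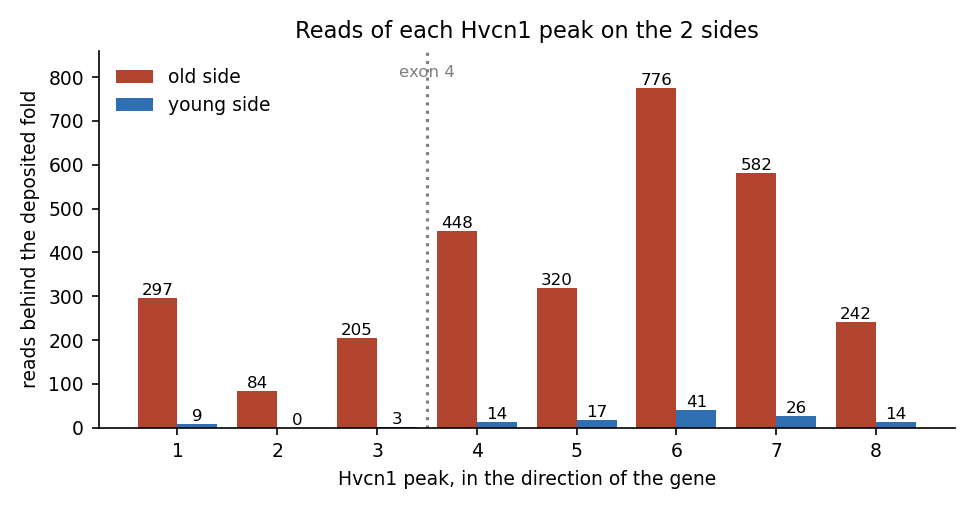
Reads behind the deposited fold at each of the 8 Hvcn1 peaks, old side and young side, with the number above each bar; the dotted line marks exon 4. Old-side reads run from 84 to 776 and young-side reads from 0 to 41, and both are highest at peak 6.

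Young liver was not without signal at these positions. At least 1 young-side read stood behind 7 of the 8 peaks, with a median of 14 reads, where the median over all 976 peaks of the larger old list was 5. Over that whole list 36.0% of peaks had 0 reads on the young side, against 1 of 8 in Hvcn1. Only 28 of the 976 had more young-side reads than peak 6. Hvcn1 peaks also had more old-side reads, with a median of 308.5 against 159.5 over the list. Young-side counts were not compared at equal old-side reads. The old and young counts rose together along the 8 peaks, with Pearson's r of 0.953 and Spearman's rho of 0.922. That is a description over 8 neighbouring positions that share libraries, may share reads, and all had to pass the same fold.

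As a ratio of reads, scaled for the relative depth of the sides, the peaks ranged from 18.1 to 71.7 times higher in old liver. Intervals are 95% Clopper-Pearson intervals and cover counting error only. The ratio was 34.6 (18.0 to 76.5) at peak 1, 71.7 (24.2 to 351) at peak 3 and 33.6 (19.8 to 61.9) at peak 4. It was 19.8 (12.1 to 34.3) at peak 5, 19.9 (14.5 to 27.9) at peak 6, 23.5 (15.9 to 36.3) at peak 7 and 18.1 (10.6 to 33.7) at peak 8. The intervals of these 7 peaks overlap one another. At peak 2, with 0 young-side reads, old liver was 29.4-fold higher against a floor of 3 young-side reads. This bound takes the old-side count as exact and has no counting interval. The deposited fold of peak 2, 720, was the highest in the gene, although it rested on the fewest old-side reads.

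Summed over the 8 peaks, 2954 old-side reads stood against 124 young-side reads, a ratio of 25.0 (20.9 to 30.2). Overlapping intervals can share reads, so the sum was repeated with the fuller peak of each overlapping set, which left 6 peaks with 2288 and 98 reads and a ratio of 24.5 (20.01 to 30.3). The 3 peaks before exon 4 together had 586 and 12 reads, a ratio of 51.3 (29.1 to 99.8). The 5 peaks after it had 2368 and 112, a ratio of 22.2 (18.4 to 27.1). The difference between the sides of the exon was not tested, because the folds chose the peaks. Peaks before the exon held 19.8% of the old-side reads and 9.68% of the young-side reads of the set.

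**Figure D3:**
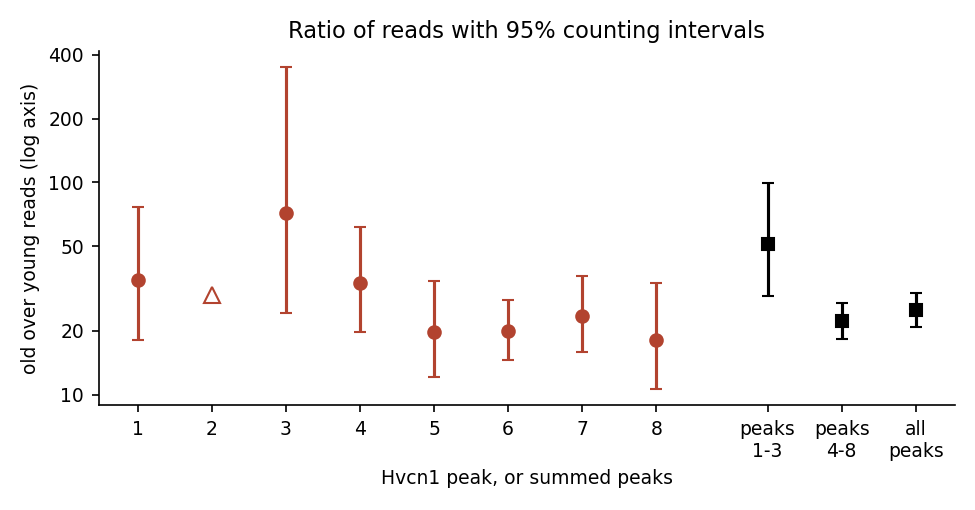
Old over young reads (log axis) for each Hvcn1 peak, and summed over peaks 1 to 3, peaks 4 to 8 and all 8, with 95% counting intervals. The open triangle at peak 2 is a bound against a floor of 3 reads, without a counting interval. Most peaks lie between 18.1 and 34.6, peak 3 is at 71.7 with the widest interval, and the sum over all peaks is 25.0.

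Set within the larger old list, the Hvcn1 peaks were rich in reads and moderate in fold. Of the 8, 7 had more old-side reads than the list's median of 159.5, and peak 6 had more than 96.3% of the list. Only 2 of the 8, peaks 2 and 3, had a deposited fold above the list's median of 42.5. The lowest deposited fold in the gene was 18.0 at peak 8, clear of the lists' minimum of 10.

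Neighbouring peaks were close enough for some to be parts of 1 start region. Peaks 1 and 2 shared 3 bp, and peaks 6 and 7 shared 25 bp, while peaks 4 and 5 were 2 bp apart. Steps between centres had a median of 512 bp, from 125 bp between peaks 6 and 7 to 787 bp between peaks 2 and 3. Joined within 500 bp, the peaks formed 4 loci. These were peaks 1 and 2 (122232056 to 122232352), peak 3 alone, peaks 4 and 5 (122233730 to 122234031) and peaks 6 to 8 (122234557 to 122235343). Joining within 1000 bp merged all into 1 locus, and joining only those that overlap left 6.

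The stricter old list held 2 Hvcn1 peaks, with the same coordinates as peaks 1 and 4. The stricter peak at peak 1 also reached 3 bp into peak 2. The stricter list did not follow the read counts within the gene, since peaks 6, 7 and 5 had more old-side reads than peak 1 and were not in it. Across the whole list, peaks with many reads were more often in both, though most were not: of the 227 larger-list peaks with at least 297 old-side reads, 93 (40.97%) stood at the same coordinates in the stricter list, against 18.6% of all 976. What separates the stricter list from the larger one was not analysed here.

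The peaks were far from every annotated start. The nearest start of Hvcn1 itself, that of Hvcn1-202 at 122210134, was 21997 to 25135 bp from the peak centres. The nearest start of any transcript belonged to Tctn1-204 at 122251678, 16409 to 19547 bp away. Tctn1, which encodes a protein of the ciliary transition zone, lies on the minus strand and shares the last 4450 bp of Hvcn1, beyond all 8 peaks. Tctn1 held 0 peaks in the 4 lists, as did the flanking genes Ppp1cc, a catalytic subunit of protein phosphatase 1, and Pptc7, a mitochondrial phosphatase. The nearest peak outside Hvcn1 in the larger old list was in Dtx1, 1516122 bp before the gene, with 92 old-side and 4 young-side reads. The nearest in the larger young list was in Atp2a2, 232988 bp beyond the gene, with 354 young-side and 19 old-side reads. Dtx1 and Atp2a2 are named because of these positions.

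Few genes of this size held more than 1 peak. Among 21951 protein-coding genes, 608 (2.77%) held a larger old-list peak, 304 (1.38%) a larger young-list peak, 160 (0.729%) a stricter old-list peak and 11 (0.0501%) a stricter young-list peak. Hvcn1 was chosen on its peaks, so nothing is read from its own place against these shares. With 8 peaks it ranked 4th among the 608, level with Anks1b, a gene for a synaptic adaptor protein that is 1099792 bp long and spread its 8 peaks over 304954 bp. The genes above it, Msra with 12 peaks and Foxp1 and Nfatc1 with 9 each, were named after their counts were seen, and each is at least 106867 bp long. Of 3814 protein-coding genes between 25 and 50 kb, a range set after the length of Hvcn1 was known, 102 (2.67%) held a larger old-list peak. In 75 of them it was 1 peak and in 18 it was 2, and the most in any other than Hvcn1 was 4.

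**Figure D4:**
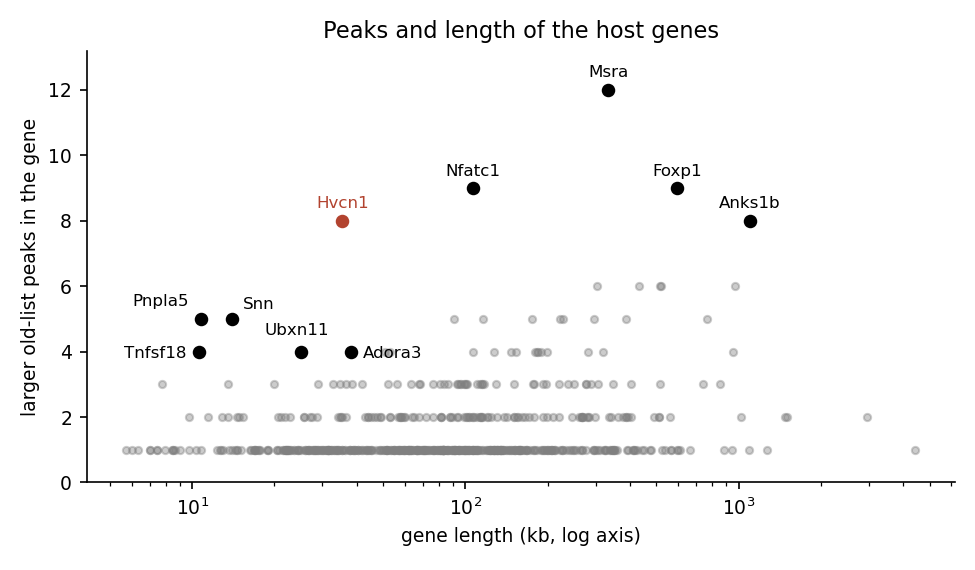
Number of larger old-list peaks against gene length (kb, log axis) for the 608 host genes, each point 1 gene. Named genes are Hvcn1, those with as many or more peaks, and the 5 others densest in peaks among genes with at least 4. Hvcn1 has 8 peaks in 35494 bp, while the genes with 8 or more peaks other than Hvcn1 are all over 100 kb.

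By peaks per length, among genes with at least 4 larger old-list peaks, Hvcn1 was most like a few short genes. It held 2.25 peaks per 10 kb, the 4th highest of the 37 genes with at least 4 larger old-list peaks and the 5th highest of all 608 host genes. With peaks within 500 bp joined, it held 1.13 loci per 10 kb and ranked 20th of the 608. Among the 37 genes, the others nearest the top were Pnpla5, Tnfsf18 and Snn. Pnpla5, a gene of the patatin-like lipase family, held 4.62 per 10 kb. Tnfsf18, which encodes the ligand of the costimulatory receptor GITR of T cells, held 3.76. Snn, which encodes the small membrane protein stannin, held 3.56. Ubxn11, a UBX-domain gene, followed with 1.60, and then Adora3, which encodes the adenosine A3 receptor, with 1.05. Like Hvcn1, these 5 genes kept their peaks in a short stretch, from 908 bp in Tnfsf18 to 2541 bp in Adora3.

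These genes differed in how their reads were spread. The 4 peaks of Tnfsf18 had 87, 162, 919 and 919 old-side reads, and the last 2, whose centres are 20 bp apart, had the same counts at both ages, 919 and 9. Overlapping intervals can thus carry the same reads. In Adora3 a single peak had 1957 old-side reads and the other 3 between 64 and 442. The 5 peaks of Pnpla5 lay between 87 and 206 old-side reads, and the 5 of Snn between 75 and 563. The median young-side count was 14 in Hvcn1, 6 in Pnpla5, 8 in Tnfsf18, 18 in Snn, 0 in Ubxn11 and 37.5 in Adora3. Peaks with 0 young-side reads numbered 1 in each of Hvcn1, Pnpla5, Tnfsf18 and Adora3, 2 in Snn and 3 in Ubxn11.

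**Figure D5:**
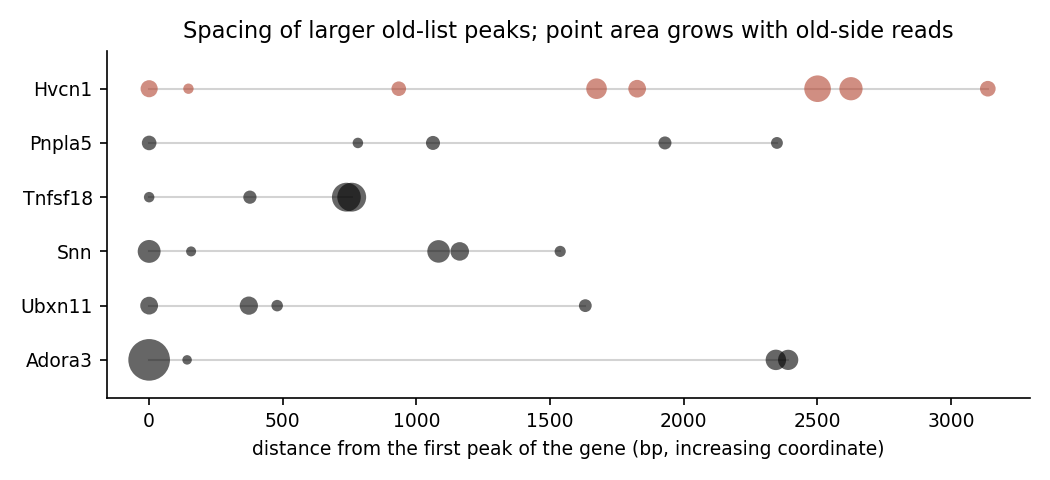
Distance of each larger old-list peak from the first peak of its gene (bp), with point area growing with old-side reads. Genes shown are Hvcn1 and the 5 others with most peaks per length among genes with at least 4 peaks. The Hvcn1 peaks reach 3138 bp from the first, and 2 Tnfsf18 points nearly coincide.

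The stretch around exon 4 was the fullest of its length in the larger old list. In windows as long as the Hvcn1 stretch, the larger old list reached 8 peaks only in Hvcn1, and the next fullest windows held 5, in Anks1b, Msra, Pnpla5 and Snn. With overlapping peaks joined, the Hvcn1 window kept 6 and those of Anks1b and Pnpla5 kept 5. The window length was taken from the Hvcn1 peaks themselves, so this ranks the windows and tests nothing.

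Peaks were also counted in genes related to Hv1 by function or structure. Of 15 genes of the NADPH oxidase, which include the catalytic subunit gene Cybb and its membrane partner Cyba, 0 held a peak in any list. The same was true of 6 voltage-sensor relatives, such as Tpte, Tmem266 and the Catsper genes, and of 21 genes of proton and bicarbonate transport, among them the sodium-proton exchanger genes of the Slc9a family. Of 18 genes of B-cell receptor signalling, 0 held an old-list peak and 1 a young-list peak. That gene was Plcg2, a phospholipase downstream of the receptor, with 97 young-side and 0 old-side reads. Against a floor of 3 old-side reads, it was 30.8-fold higher in young liver, a bound without a counting interval. Across these 60 genes the larger old list thus had 0 hosts and the larger young list 1, where the shares over all protein-coding genes were 2.77% and 1.38%. Counts this small do not show a difference from those shares.

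Markers of cells that use Hv1 or that make up liver were looked at in the same way. Over all protein-coding genes the shares with a peak were 2.77% in the larger old list and 1.38% in the larger young list, so a count of 0 in lists this short is near the background. Of 12 B-cell genes, 3 held larger old-list peaks and 0 held larger young-list peaks. They were the lineage factor genes Ebf1, Ikzf3 and Bach2. Ebf1 had 1 peak with 185 old-side and 8 young-side reads, a ratio of 24.3 (12.1 to 57.1). Ikzf3 had 2, of 206 and 0 reads and of 275 and 8, both also in the stricter old list. Bach2 had 3, with 140, 625 and 223 old-side reads against 0, 61 and 6. These genes are 81130 bp or longer, and the part of gene length in their count was not tested. Of the 9 Kupffer cell and macrophage genes and the 8 neutrophil genes, 0 held a peak in any list. Of 10 T- and NK-cell genes, Bcl11b held larger old-list peaks, 2 in number, with 284 and 295 old-side reads against 0 and 5. The Bcl11b peak with 284 reads was also in the stricter old list. That list thus had a peak in 1 of the 12 B-cell genes and 1 of the 10 T- and NK-cell genes. Its share over all protein-coding genes was 0.729%. Of 10 hepatocyte genes, Fah held an old-list peak with 138 reads against 13, and Ttr, Hnf4a and Rbp4 held young-list peaks. A marker without a peak says nothing about its expression, and whether these cells account for the Hvcn1 peaks was not tested.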

How the data were processed

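PRO-cap was run on 8 liver samples, and the data used here are 4 deposited peak lists in mm10, 1-based here. Per the submitters' processing notes, the tools were HOMER, BWA 0.7.10, bedtools 2.27.1-65, cutadapt 2.10 and SAMtools 1.1, in no stated order. The list names carry a mark for a fold of 10 and, in the stricter lists, also the marks 10RPM and NoInt. For peak calling and pooling, no other settings were given in the sources used here. In the larger lists the authors deposited a ratio (fold) per peak, and in the stricter lists a score of 0 throughout, used for positions only.

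Each fold was solved as whole scaled reads plus a constant over the same for the other age, within 1e-07 reads and up to 1000 reads on the other side. All 976 old and 425 young values had 1 solution. A read was worth 8.55 constants on the old and 8.15 on the young side, so, if both were scaled alike, old depth was 0.953 of young depth. Total depth is unknown. Tested on simulated data, 100% of 976 old-like and 425 young-like values were recovered. The simulated folds were built from the solved counts with the worth of a read supplied. Estimating that worth from the deposited values was therefore not tested. A side with 0 reads was set to 3, a chosen floor, and the ratio against it carries no counting interval.

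Peaks were placed by centre in GENCODE M21 genes with Python 3.11.15 and SciPy 1.17.1, and joined within 500 bp. Named genes are Hvcn1, its neighbours, genes with as many peaks, the 5 with at least 4 peaks and most per 10 kb, and listed genes with a peak. The gene and the lists were chosen with earlier results of these data known. The motif search listed in the design was not run, as no genome was used here.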

Additional observations from a re-analysis of the deposited data

How the results depend on the processing

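Alternatives were run for the counts of Hvcn1 peaks, loci, shared and exonic peaks, the distance to a start, the ratio of each peak and of their sum, the ranks and the counts of listed genes. Those not named below kept within 1.5 times the count given, or within the counting interval of the ratio. The ratios before and after exon 4, the correlation, the places within the list and the windows had no alternative. Requiring a deposited fold of at least 20 left 5 larger old-list peaks, and joining peaks within 500 bp left 4. Joining within 1000 bp turned the 4 loci into 1. The median distance to the nearest annotated start was 17797 bp. It became 23747 bp with starts of protein-coding transcripts, and 23747 bp with starts of Hvcn1 transcripts, since fewer starts were counted. At peak 2, whose young side had 0 reads, the bound of 29.4 became 88.2 with a floor of 1 read and 28.0 without scaling by depth, and the deposited fold was 720. Counted as loci per 10 kb, Hvcn1 ranked 20 of 608, where it ranked 5 by peaks per 10 kb and 4 by peaks. The sum over 1 peak for each overlapping set was chosen after seeing the data. No paired analysis was possible because each list is 1 pooled result, and for the same reason leaving out a sample was not possible. Peaks with few young-side reads have wide intervals, and total depth is unknown.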
